A study of Mus musculus with 5 samples.

Results

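The receptors described here bind interleukin 6, interleukin 27, interleukin 10, interleukin 17 and the interleukin 1 family of cytokines. They were chosen by name, from a list of 10 mouse genes, and every probe set that the platform annotation pairs with 1 of those symbols was taken. Of the 10 genes, 9 had such a probe set, with 19 probe sets in all, among 18193 genes and 45101 probe sets on the array. Il1rl1, which encodes ST2, the receptor of interleukin 33, was not analysed here, because no probe set carries its symbol in the annotation used.

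The study asks how CD4+ T cells change when they meet a tumor in the animal, and its title describes the cells as Th1. All mice were adult SCID animals on the BALB/c background, aged 7 to 12 weeks, whose T cells carry a transgenic receptor directed at the MOPC315 tumor, a myeloma. For the 3 activated samples, 12 to 15 mice were injected under the skin with 100000 MOPC315 cells in 250 µl of Matrigel. Their draining axillary lymph nodes were pooled on day 8, and CD4+ GB113+ T cells were sorted, at least 95% pure. For the 2 naive samples, tumor-specific CD4+ T cells came from pooled lymph nodes of transgenic SCID animals without tumor cells, and mice given Matrigel alone were not analysed here. Each sample was an independent experiment measured on 1 Affymetrix array, and the values are linear probe set intensities. The naive cells are said to have been handled in the same way, with no purity given. The T cell markers Cd3e, Cd3g, Cd3d and Cd4 were well above the background filter on all 5 arrays, with Cd4 at 1049.4, 1119.4 and 915.4 on activated arrays and 778.2 and 732.6 on naive arrays.

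Interleukin 6 binds its own receptor chain, encoded by Il6ra, and the pair then recruits gp130, encoded by Il6st, which carries the signal through JAK kinases to STAT3. Interleukin 27 uses gp130 as well, beside the chain encoded by Il27ra. In CD4+ T cells these cytokines are known to steer helper cell fate, and T cells are known to lose surface interleukin 6 receptor after antigen. The interleukin 1 family receptors signal through the adaptor MyD88. Il1r2 is the exception, a decoy that binds interleukin 1 without a signalling domain.

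Il1r2 and Il6st were higher and Il6ra was lower in activated cells, and the other 6 measured receptor genes did not pass the test. Il1r2 was 4.14 times as bright on the activated as on the naive arrays, Il6st 1.53 times and Il6ra 0.326 times. Values were compared as log2(intensity + 16) in limma's moderated test, with 1 probe set per gene, the brightest, and Benjamini-Hochberg adjustment over 12873 genes with a threshold of 0.05. All 9 measured receptor genes passed the filter on dim values. Il1r1 passed it only through 2 activated arrays, so it could be tested only because it was high there. The 3 calls among 9 genes stand against 10.5% called among all tested genes, 6.36% higher and 4.14% lower. The median log2 fold change of the 9 genes was 0.09, or 0.02 without Il1r1, against -0.03 over all tested genes. In 4 of the 9 genes the activated and naive arrays did not overlap, against 40.9% of all tested genes.

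**Figure D1:**
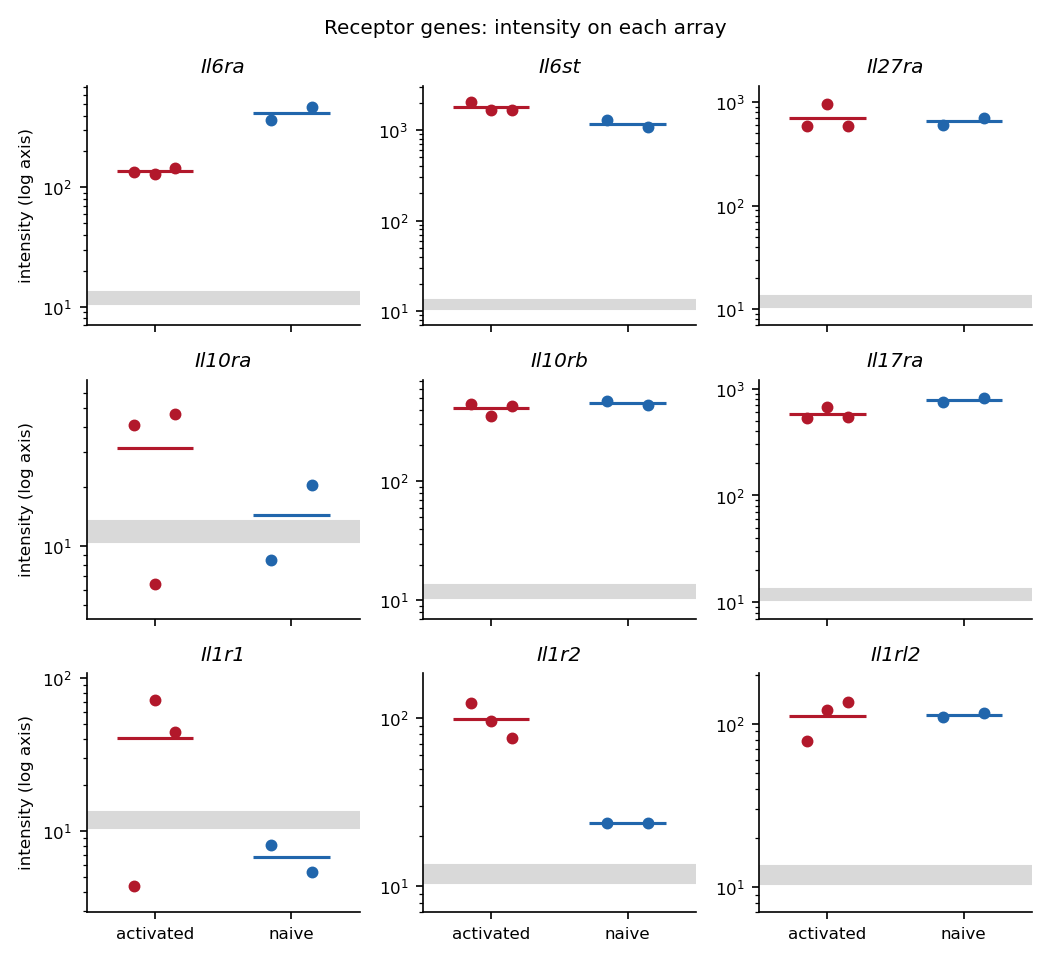
Intensity (log axis) of the 9 measured receptor genes on each array, for the brightest probe set of each gene, with the 3 activated arrays on the left, the 2 naive arrays on the right, and a line at each group mean. The grey band is the range of the filter intensity, 10.5 to 13.4; the groups separate for Il6ra, Il6st, Il17ra and Il1r2, and Il1r1 and Il10ra reach below the band in both groups.

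The sequences before the annotated start of the 3 called genes are shown because the data concern how much of each transcript was present. They are the 250 bases before the start in RefSeq, build GRCm38.p6, on the strand of the gene, and windows of this kind were at hand for 6 of the 10 genes. Il6ra lies on the minus strand at chr3:89913197-89913446, Il6st on the plus strand at chr13:112463820-112464069 and Il1r2 on the plus strand at chr1:40085843-40086092. Capitals mark matches on either strand to the motif TTCNNNGAA, which STAT factors bind, the motif TGANTCA, which AP-1 binds, and the E-box CACGTG.
Il6ra: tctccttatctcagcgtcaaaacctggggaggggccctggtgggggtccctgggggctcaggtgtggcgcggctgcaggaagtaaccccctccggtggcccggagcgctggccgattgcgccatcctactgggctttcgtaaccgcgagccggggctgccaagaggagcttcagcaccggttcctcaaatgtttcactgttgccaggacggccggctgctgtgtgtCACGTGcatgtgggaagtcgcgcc
Il6st: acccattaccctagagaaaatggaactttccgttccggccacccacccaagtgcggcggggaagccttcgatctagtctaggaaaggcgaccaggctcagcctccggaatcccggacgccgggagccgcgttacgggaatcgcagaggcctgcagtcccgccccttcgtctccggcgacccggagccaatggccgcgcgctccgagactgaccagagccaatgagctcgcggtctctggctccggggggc
Il1r2: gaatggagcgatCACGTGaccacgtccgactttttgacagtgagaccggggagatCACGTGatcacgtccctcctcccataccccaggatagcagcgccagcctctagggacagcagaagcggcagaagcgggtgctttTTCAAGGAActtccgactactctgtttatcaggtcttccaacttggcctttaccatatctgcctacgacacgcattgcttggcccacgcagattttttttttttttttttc
The Il1r2 window held 1 match to TTCNNNGAA, which begins 111 bases before the start, and 2 to CACGTG. The Il6ra window held 1 match to CACGTG, and the Il6st window held none of the 3 motifs. Among 32851 such windows 7.02% held TTCNNNGAA, 6.75% held TGANTCA and 6.02% held CACGTG. The match in Il1r2 does not overlap its E-boxes. A match is a description of the letters in the window.

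The receptor chain for interleukin 6 itself was lower. The intensity of Il6ra was 135.8, 128.9 and 145.9 on the activated arrays, against 367.4 and 471.6 on the naive arrays (probe set 1452416_at). Every activated array was below both naive arrays, and the 3 activated values lay close together. Il6ra averaged 137 ± 8.55 (SD, n = 3) in activated cells and 419.5 ± 73.7 (SD, n = 2) in naive cells. The log2 fold change was -1.50 ± 0.17 (SE, limma adjusted p = 0.00036), and the call was kept in all 18 alternatives, with log2 fold changes from -1.67 to -0.97. The other Il6ra probe set, 1422270_a_at, gave less: its intensities were 50.3, 35.0 and 79.2 on activated arrays and 76.6 and 78.3 on naive arrays. These groups overlapped through activated replicate 3, and the log2 fold change of -0.45 ± 0.27 (SE) did not pass in a fit over 23722 probe sets (limma adjusted p = 0.36). Which Il6ra transcripts each probe set detects was not analysed here.

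The shared signalling chain moved the other way. On its brightest probe set, 1437303_at, Il6st read 2047.3, 1676.9 and 1670.6 on the activated arrays, against 1280.0 and 1075.7 on the naive arrays. It averaged 1798 ± 216 (SD, n = 3) in activated cells and 1178 ± 144 (SD, n = 2) in naive cells, without overlap. Its log2 fold change of 0.60 ± 0.17 (SE) lay just inside the threshold over genes (limma adjusted p = 0.048) and just outside it over all probe sets (limma adjusted p = 0.057). Over genes the call was kept in 8 of 18 alternatives and lost whenever any 1 array was left out, with log2 fold changes from 0.48 without naive replicate 2 to 0.73 without naive replicate 1.

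The other 3 Il6st probe sets were higher by at least as much. Probe set 1452843_at had 872.6, 721.8 and 816.2 on activated arrays and 487.7 and 496.5 on naive arrays, a log2 fold change of 0.69 ± 0.16 (SE, limma adjusted p = 0.028). Probe set 1460295_s_at had 600.2, 426.5 and 580.0 on activated arrays and 280.5 and 127.3 on naive arrays, a log2 fold change of 1.40 ± 0.29 (SE, limma adjusted p = 0.014). Probe set 1421239_at had 280.5, 155.8 and 274.0 on activated arrays and 95.0 and 27.6 on naive arrays, a log2 fold change of 1.82 ± 0.37 (SE, limma adjusted p = 0.015). Among the tested receptor probe sets 4 passed higher and 1 lower, where 5.58% of all tested probe sets were higher and 3.07% lower, 8.65% in all. All 4 Il6st probe sets had every activated array above both naive arrays, but the probe sets share a target and are not replicates. Probe set 1452843_at lost its call whenever any 1 array was left out, with log2 fold changes from 0.63 to 0.76, and with no variance trend. On the last pair naive replicate 2 was far below naive replicate 1, and without naive replicate 2 the log2 fold changes were 0.88 and 1.14 and the calls were lost. They were lost without activated replicate 1 as well, at 1.32 and 1.68. The annotation gives 1421239_at and 1460295_s_at the same source sequence. With all Il6st probe sets averaged, the log2 fold change was 1.13 (limma adjusted p = 0.010).

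**Figure D2:**
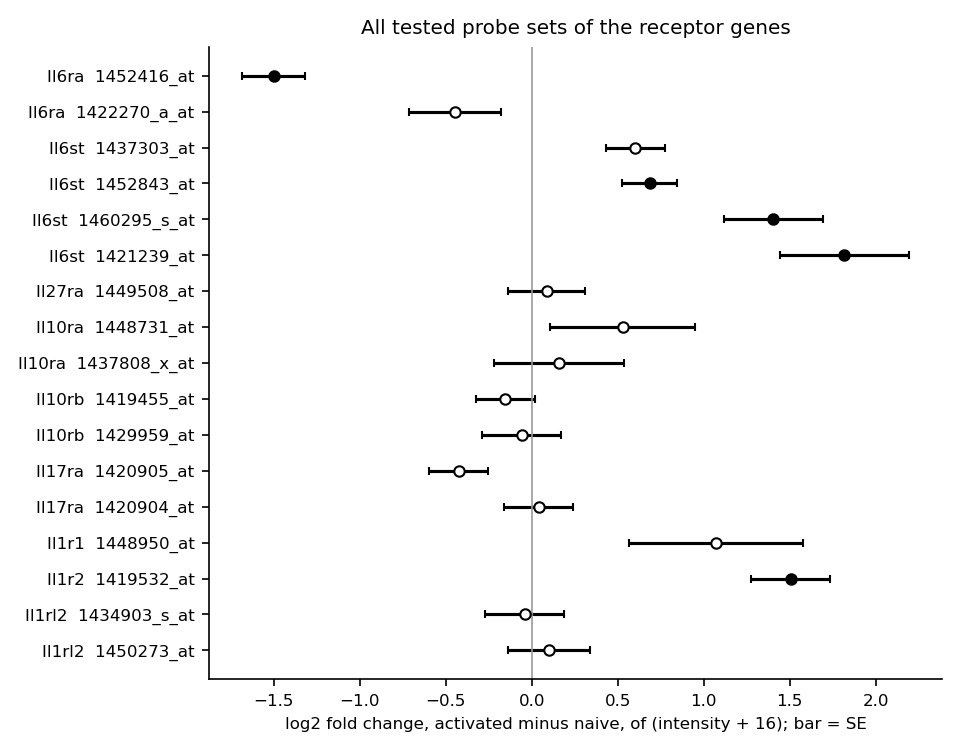
Log2 fold change, activated minus naive, of log2(intensity + 16) for the 17 tested probe sets of the receptor genes; bars are standard errors and filled points passed the test over 23722 probe sets. All 4 Il6st probe sets lie above 0, the Il6ra probe sets lie below 0 at -1.50 and -0.45, and the Il1r2 probe set lies at 1.51.

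The partner chain for interleukin 27 did not pass. Il27ra read 585.5, 954.4 and 588.4 on activated arrays and 604.5 and 698.2 on naive arrays. The groups overlapped, with activated replicate 2 the highest array and the other activated arrays below both naive ones. The log2 fold change was 0.09 ± 0.22 (SE, limma adjusted p = 0.86), and its sign turned when activated replicate 2 or naive replicate 1 was left out.

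The decoy receptor for interleukin 1 was higher. Il1r2 read 123.4, 96.4 and 76.4 on the activated arrays, against 23.9 and 23.8 on the naive arrays. The lowest activated array was above both naive arrays, which were nearly equal. Il1r2 averaged 98.7 ± 23.6 (SD, n = 3) in activated cells and 23.9 ± 0.071 (SD, n = 2) in naive cells, and its log2 fold change was 1.51 ± 0.22 (SE, limma adjusted p = 0.0018). The call was kept in all 18 alternatives. The size depended on the pseudocount, with a log2 fold change of 1.98 with a pseudocount of 1 and 0.88 with 64.

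The signalling receptor Il1r1 was uneven among the activated arrays, at 4.4, 72.0 and 44.7, against 8.1 and 5.4 on the naive arrays. Activated replicate 1 was the lowest of the 5 arrays and the other activated arrays the highest. The log2 fold change was 1.07 ± 0.50 (SE, limma adjusted p = 0.23). Without activated replicate 1 it was 1.69 and passed (limma adjusted p = 0.0069), and without activated replicate 2 or 3 the gene fell below the filter and could not be tested. The second Il1r1 probe set was below the filter on every array. Il1rl2, the receptor of interleukin 36, had 78.5, 122.1 and 136.6 on activated arrays and 109.8 and 117.3 on naive arrays, on a probe set whose suffix marks shared sequence. Its groups overlapped, with a log2 fold change of -0.04 ± 0.23 (SE, limma adjusted p = 0.94). On the probe set without a suffix Il1rl2 ran from 16.5 to 19.0 on activated arrays and was 14.4 and 17.0 on naive arrays, with a log2 fold change of 0.10 (limma adjusted p = 0.85).

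Transcripts of other cell types differed between the arrays, and activated replicate 1 had the most of them. Neutrophils, macrophages and regulatory T cells are also known to express Il1r2. The summed intensity of 9 measured neutrophil markers of 11 listed was 1024.3, 80.2 and 131.1 on activated arrays and 131.6 and 108.4 on naive arrays. For 11 markers of macrophages and monocytes the sums were 2780.3, 166.0 and 1107.3 on activated arrays and 398.3 and 250.6 on naive arrays. For 9 dendritic cell markers they were 1539.9, 171.5 and 217.4 on activated arrays and 199.3 and 114.7 on naive arrays. On activated replicate 2 the neutrophil and macrophage sums were below both naive arrays and the dendritic cell sum lay between them. None of the 6 neutrophil, 10 macrophage and 6 dendritic cell markers that could be tested passed. NK cell markers, 6 measured, summed to 3705.5, 646.2 and 655.9 on activated arrays and 638.8 and 702.2 on naive arrays, and Eomes and Klrc1 were higher. Klrc1 was above the filter on activated arrays only, so it could be tested only because it was high there. The activated and naive ranges of the sums overlapped for B cells, plasma cells, group 2 innate lymphoid cells, and mast cells and basophils. Most of the plasma cell sum was Xbp1, at 1200.3, 1061.6 and 1172.4 on activated arrays and 1116.2 and 1263.6 on naive arrays. Of 5 tested plasma cell markers 1, Irf4, was higher and none lower, where 6.36% of all tested genes were higher. Irf4 is also on the list of genes linked to STAT3 in T cells, described below. Sdc1 had 7.8, 4.8 and 1.5 on activated arrays and 21.2 and 21.1 on naive arrays, and did not pass (limma adjusted p = 0.081). Sdc1 was above the filter on naive arrays only, so it could be tested only because it was high there. For mast cells and basophils the sums were 146.8, 162.2 and 119.3 on activated arrays and 120.6 and 97.6 on naive arrays.

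Il1r2 and the brightest Il6st probe set were highest on activated replicate 1, at 123.4 and 2047.3. Leaving out activated replicate 1 gave Il1r2 a log2 fold change of 1.35 (limma adjusted p = 0.0068). Activated replicate 3, which stays in that fit, had a macrophage and monocyte sum of 1107.3, against 398.3 and 250.6 on naive arrays. That fit therefore does not leave out all transcripts of other cells. Of 9 measured regulatory T cell markers, 5 were higher and none lower in activated cells (Ctla4, Ikzf2, Ikzf4, Tnfrsf18 and Gpr83, named after their values were seen), where 6.36% of all tested genes were higher. Foxp3, which defines that lineage, had 19.1, 11.6 and 6.7 on activated arrays and 7.2 and 17.0 on naive arrays, at or near the filter. Stromal and endothelial cells are known for Il1r1 and Il6st. Their 10 measured markers summed to 425.1, 368.6 and 446.7 on activated arrays and 272.6 and 245.3 on naive arrays, without overlap. Most of that sum was Pecam1, which T cells express too and which was higher, at 305.1, 258.6 and 345.4 on activated arrays and 157.9 and 168.7 on naive arrays (log2 fold change 0.82, limma adjusted p = 0.013). Pdpn had 15.0, 22.2 and 30.8 on activated arrays and 13.2 and 13.8 on naive arrays and did not pass (limma adjusted p = 0.44). Col1a1 was at 14.2, 8.9 and 0.8 on activated arrays and 1.4 and 5.5 on naive arrays. No marker on these lists was listed at 0 on all arrays. The part of other cells in the Il1r2 and Il6st results was not tested further, and fewer cells of a type and less RNA per cell cannot be told apart in such bulk samples.

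**Figure D3:**
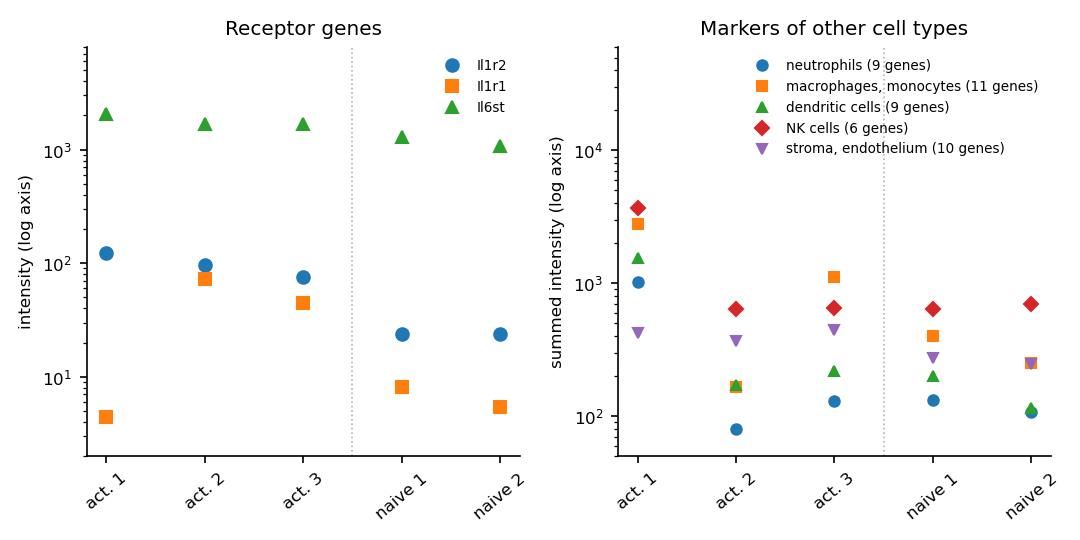
Left, intensity (log axis) of Il1r2, Il1r1 and Il6st on each array; right, summed intensity (log axis) of marker lists of other cell types on the same arrays, activated arrays left of the dotted line and naive arrays right of it. Activated replicate 1 has the highest neutrophil, macrophage, dendritic and NK cell sums and the lowest Il1r1 value, 4.4. It also has the highest Il1r2 and Il6st values, 123.4 and 2047.3. Il1r2 is above both naive arrays on all 3 activated arrays.

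Receptor chains for interleukin 10 and interleukin 17 did not pass. Il10ra, the chain that binds interleukin 10, was dim, with 40.9, 6.4 and 46.6 on activated arrays and 8.5 and 20.3 on naive arrays. Its groups overlapped, and the log2 fold change of 0.53 ± 0.42 (SE) did not pass (limma adjusted p = 0.49). Of 2 further Il10ra probe sets, 1 did not pass, at 0.16, and 1 was below the filter on every array. Il10rb, a chain shared with other receptors of the interleukin 10 family, had 444.3, 354.7 and 427.5 on activated arrays and 475.8 and 434.5 on naive arrays, with a log2 fold change of -0.15 ± 0.17 (SE, limma adjusted p = 0.63). Its second probe set lay at -0.06.

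Il17ra, the common chain of the interleukin 17 receptors, had 530.7, 675.7 and 540.7 on activated arrays and 756.3 and 810.5 on naive arrays. All activated arrays were below both naive arrays, but the log2 fold change of -0.43 ± 0.17 (SE) did not pass (limma adjusted p = 0.15). The second Il17ra probe set overlapped between the groups, at 226.9, 297.9 and 275.8 on activated arrays and 304.2 and 217.9 on naive arrays, with a log2 fold change of 0.04 (limma adjusted p = 0.94).

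The interleukin 1 receptor genes lie next to each other on chromosome 1, in the order Il1r2, Il1r1, Il1rl2, Il1rl1, Il18r1 and Il18rap in RefSeq, and these neighbours differed in direction. Il18r1, the binding chain of the interleukin 18 receptor, was lower, at 231.4, 174.7 and 91.1 on activated arrays against 551.3 and 1003.3 on naive arrays, with a log2 fold change of -2.15 ± 0.34 (SE, limma adjusted p = 0.0026). Il1r2, at one end of the row, was higher. Il18rap, the second chain of that receptor, had 139.4, 104.4 and 78.9 on activated arrays and 90.9 and 40.8 on naive arrays, which overlap, with a log2 fold change of 0.64 ± 0.29 (SE, limma adjusted p = 0.22). Of 5 tested members of a list of other interleukin 1 family receptors and binding proteins, none was higher and 2 were lower, where 10.5% of all tested genes were called and 4.14% lower. The median log2 fold change of the list was -0.01. The other was Il18bp, a secreted protein that captures interleukin 18, at 20.4, 22.8 and 34.8 on activated arrays and 91.2 and 107.1 on naive arrays, with a log2 fold change of -1.47 ± 0.23 (SE, limma adjusted p = 0.0022). Il1rap, the co-receptor that Il1r1 needs and Il1r2 also binds, had 80.7, 89.7 and 87.9 on activated arrays and 66.6 and 53.6 on naive arrays. Its groups did not overlap, but it did not pass, with a log2 fold change of 0.43 ± 0.19 (SE, limma adjusted p = 0.20). The inhibitory receptor Sigirr lay at -0.01 (limma adjusted p = 0.98).

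Of 8 tested members of a list of other gp130 and interleukin 12 family receptors, 1 was higher and none lower, 12.5% against 10.5% of all tested genes. The median log2 fold change was 0.23, or 0.04 without Lifr and Il12rb2, which passed the filter on activated arrays only. This was Crlf2, a chain of the receptor for thymic stromal lymphopoietin, at 424.3, 517.7 and 517.9 on activated arrays and 250.7 and 255.5 on naive arrays, with a log2 fold change of 0.90 ± 0.16 (SE, limma adjusted p = 0.0057). Lifr, which pairs with gp130 for leukemia inhibitory factor, was dim, with 24.4, 4.9 and 14.2 on activated arrays and 0.9 and 3.9 on naive arrays. It did not pass, with a log2 fold change of 0.68 (limma adjusted p = 0.24), and Osmr, which pairs with gp130 for oncostatin M, was not above the filter on enough arrays to be tested. Il12rb1 and Il12rb2, the interleukin 12 receptor chains, lay at 0.09 and 0.71 and did not pass (limma adjusted p = 0.85 and 0.19). None of 9 tested receptors on a list of other interleukin 10 and interleukin 17 family members, which includes interferon receptor chains, passed. The 9 were Il22ra2, Il17rb, Il17rd, Il17re and the interferon receptor chains Ifnlr1, Ifngr1, Ifngr2, Ifnar1 and Ifnar2. Their median log2 fold change was 0.03, and 1 of them passed when all probe sets of a gene were averaged.

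Ligands that use gp130 changed in both directions. Of 14 tested members of the ligand list, 2 were higher and 2 lower, 28.6% against 10.5% of all tested genes. The median log2 fold change was 0.02, or -0.03 without Il1a and Il18, which passed the filter on activated arrays only. Ebi3, the subunit shared by interleukins 27 and 35, had 124.7, 105.0 and 172.4 on activated arrays and 45.0 and 12.8 on naive arrays, with a log2 fold change of 1.81 ± 0.31 (SE, limma adjusted p = 0.0042). Lif was higher, by a log2 fold change of 1.13 (limma adjusted p = 0.022), at 39.3, 77.7 and 67.7 on activated arrays and 21.5 and 16 on naive arrays. Osm was lower, by a log2 fold change of -0.84 (limma adjusted p = 0.025), and Clcf1, a ligand of the ciliary neurotrophic factor receptor, was lower by -1.13 (limma adjusted p = 0.018). Lif, Osm and Clcf1 lost their calls when some single arrays were left out, Lif without activated replicate 2 or 3 or either naive replicate, Osm without activated replicate 1 or 3 or naive replicate 2, and Clcf1 without activated replicate 1 or 2 or naive replicate 2. All 3 lost them with no filter, Lif also with its probe sets averaged, at 0.62, and Clcf1 without suffixed probe sets, at -0.69, and with no variance trend. Il6, Il10 and Il33 were too dim to be tested, and Il1b lay at 0.84 with overlapping groups (limma adjusted p = 0.25). Without activated replicate 2 Il1b was at 1.32 and passed (limma adjusted p = 0.029). Il1b, a myeloid cytokine in the main, had 121.8, 27.8 and 86.4 on activated arrays and 42.7 and 22.5 on naive arrays. The part of other cells in these values was not tested.

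Downstream of gp130, the feedback inhibitor Socs3 was lower. Socs3 binds gp130 and shuts its signal down. It had 467.5, 676.9 and 843.0 on activated arrays, against 3669.5 and 3337.2 on naive arrays, so that every activated array was far below both naive arrays. The log2 fold change was -2.41 ± 0.23 (SE, limma adjusted p = 9.2e-05), and its 3 probe sets lay between -2.58 and -2.15. Cish, another member of the SOCS family, was lower, with a log2 fold change of -1.09 ± 0.18 (SE, limma adjusted p = 0.0033), while Socs1 lay at -0.42 and did not pass (limma adjusted p = 0.20).

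Of 18 tested members of the JAK and STAT list, 4 were higher and 2 lower, 33.3% against 10.5% of all tested genes. The median log2 fold change of this list was 0.21 against -0.03 over all genes. Stat4, which transmits interleukin 12, had 919.4, 1087.1 and 1208.4 on activated arrays and 559.1 and 520.1 on naive arrays, with a log2 fold change of 0.96 ± 0.17 (SE, limma adjusted p = 0.0044). Stat5a, which transmits interleukin 2, lay at 0.73 (limma adjusted p = 0.015), and its second probe set lay at 1.63. The phosphatase gene Ptpn6, named after its value was seen, lay at 0.61 (limma adjusted p = 0.029). Stat5a lost its call without activated replicate 2 or either naive replicate, and Stat4 without naive replicate 2. The kinase Jak2 lay at 0.62 (limma adjusted p = 0.034) and lost its call without activated replicate 2 or 3 and without either naive replicate. Jak2 lost its call with median centring and with no variance trend as well. Jak1, the main kinase on gp130, had 2917.7, 3162.6 and 1984.1 on activated arrays and 3378.2 and 2275.1 on naive arrays, which overlap. Jak1 lay at -0.07 on this probe set (limma adjusted p = 0.90), and its 3 tested probe sets ran from -0.30 to 0.94. Tyk2 lay at 0.27 (limma adjusted p = 0.36). Stat3, the main transmitter of interleukin 6, lay at 0.46 and did not pass (limma adjusted p = 0.31); its 4 probe sets ran from -0.65 to 0.46.

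Genes linked to STAT3 in T cells moved both ways. Of 21 tested members of that list, 8 were higher and 3 lower, 52.4% against 10.5% of all tested genes, and their log2 fold changes had a median of 0.05. The list includes genes that antigen receptor signals are known to induce. Icos, a costimulatory receptor, lay at 2.83 and the transcription factor Irf4 at 2.49, while the kinase Pim1 lay at -2.21 and Socs3 at -2.41. The second Irf4 probe set lay at 0.63 and the second Pim1 probe set at -1.17. With probe sets averaged Irf4 lay at 1.56 and Pim1 at -1.69, and both kept their calls. Pim1 had 132.3, 156.4 and 125.7 on activated arrays and 626.6 and 775.0 on naive arrays (limma adjusted p = 3.3e-05). Prdm1, which encodes Blimp-1, was the third that was lower, at -1.11 (limma adjusted p = 0.017), and was named after its value was seen.

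In the signalling chain of the interleukin 1 and interleukin 17 receptors the share called was near that of all genes. Of 22 tested members, 2 were higher and 1 lower, 13.6% against 10.5%, with a median log2 fold change of -0.13. Myd88, the adaptor of the interleukin 1 receptors, had 448.3, 468.6 and 412.3 on activated arrays and 663.0 and 394.6 on naive arrays, with a log2 fold change of -0.20 ± 0.21 (SE, limma adjusted p = 0.61). Irak1, Traf6 and Traf3ip2, which encodes the Act1 adaptor of Il17ra, lay at -0.44, -0.0044 and 0.23 and did not pass, although Irak1 passed without activated replicate 3, at -0.67. The kinase gene Map3k7 lay at 0.95 (limma adjusted p = 0.020), but its 6 probe sets ran from -0.35 to 0.95, and averaging them gave 0.16 without a call. Zc3h12a, an RNase that degrades cytokine messages, lay at 0.93 (limma adjusted p = 0.024). Map3k7 and Zc3h12a lost their calls without activated replicate 1 or 2 or either naive replicate, and Ikbkb, described next, without naive replicate 2. Zc3h12a lost its call with its probe sets averaged as well, at 0.61, and with no filter. Map3k7 also lost its call without suffixed probe sets, at 0.23, and with no variance trend. Ikbkb, a kinase of the NF-kB pathway, lay at -1.0 (limma adjusted p = 0.0057), with probe sets from -1.0 to 0.41 and -0.33 without a call when averaged. Of 8 tested genes on a list of shedding proteases and their regulators none passed, with a median of 0.13, or 0.08 without Bace2, which passed the filter on activated arrays only, although Adam10 passed at 0.64 when its probe sets were averaged. Adam10 and Adam17, which can cut Il6ra protein off the cell, lay at 0.02 and 0.23 on their brightest probe sets. Those were the lowest of their tested probe sets, which ran up to 1.79 for Adam10 and 0.84 for Adam17. With its probe sets averaged, Adam17 lay at 0.56 and did not pass (limma adjusted p = 0.056).

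**Figure D4:**
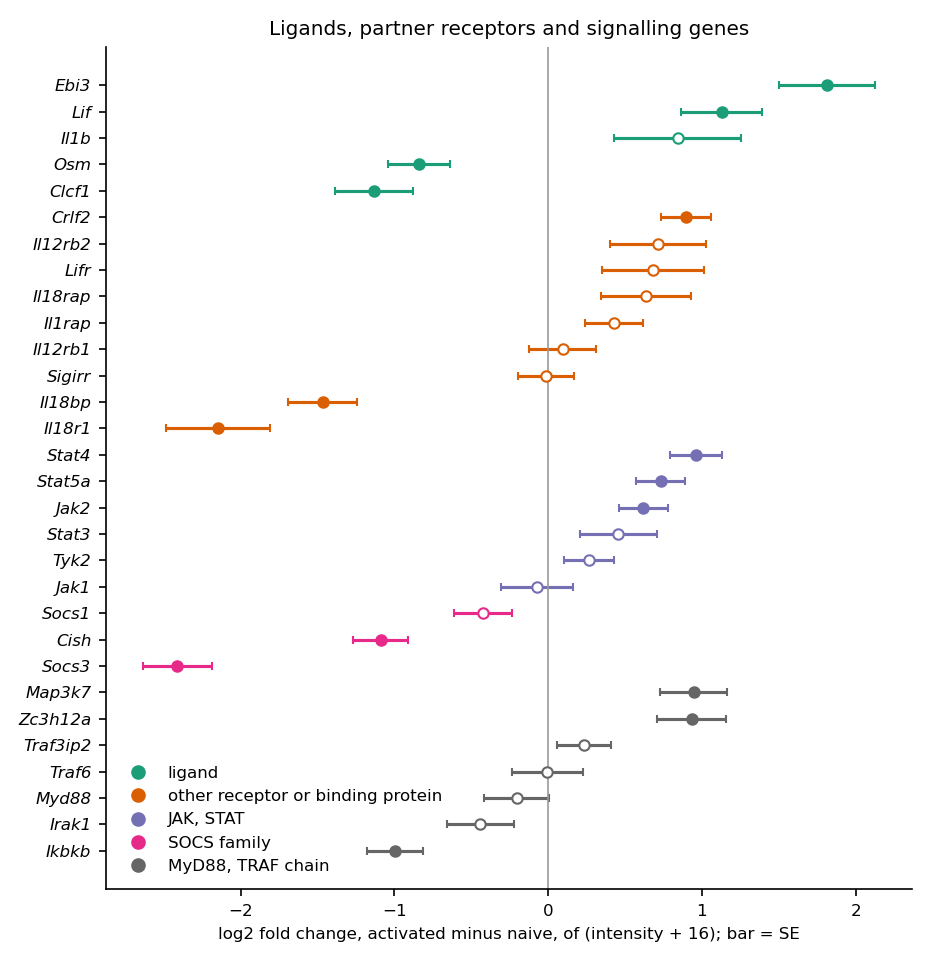
Log2 fold change, activated minus naive, of log2(intensity + 16) for ligands, other receptors and signalling genes, coloured by role; bars are standard errors and filled points passed the test over 12873 genes. Socs3 at -2.41 and Il18r1 at -2.15 lie lowest, and Ebi3 at 1.81 lies highest, among the genes plotted.

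The arrays also split by the bioC hybridisation control, which is added to each sample and is not a gene of the cells. Its mean intensity was 716, 639 and 172 on activated arrays and 725 and 209 on naive arrays, so that each side of the split held both groups. Il6ra had log2 differences, activated minus naive, of -1.37 among the arrays with high bioC and -1.59 among those with low bioC. Il1r2 had 1.65 and 1.22 on those sides, and the brightest Il6st probe set 0.53 and 0.63. The other Il6st probe sets had 0.68 and 0.70 (1452843_at), 0.82 and 2.06 (1460295_s_at), and 1.02 and 2.73 (1421239_at). The second Il6ra probe set, 1422270_a_at, had -0.67 and 0.01, so it was lower only among the arrays with high bioC. With the split as a block all 3 calls held, at -1.46 for Il6ra, 1.46 for Il1r2 and 0.57 for Il6st (limma adjusted p = 0.00012, 0.0012 and 0.015). No label says whether the split marks a batch.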

How the data were processed

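RNA of sorted CD4+ T cells from pooled mice was labelled with biotin and hybridised to 1 Affymetrix array per sample, 3 activated and 2 naive, per the labels' protocols. The authors deposited linear probe set intensities. How probes were summarised is not given in the sources used here. Each array had a 2% trimmed mean of 100, so the arrays were already scaled. The number of arrays limits the precision.

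Intensities were analysed as log2(intensity + 16) with limma 3.58.1 in R 4.3.3 (linear model, moderated variances with a trend, two-sided, Benjamini-Hochberg, threshold 0.05). Testing required an intensity over the array's 40th percentile on 2 or more of the 5 arrays; 64 control probe sets were left out. Genes were named from the platform annotation (1 symbol for 34945 probe sets, several for 932, none for 9160) and took their brightest probe set. The fit was tested on simulated data.

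The receptor genes, gene lists and motifs were chosen with earlier results of these data known, the motifs also with the sequences seen. All receptor genes, a fixed panel of partner, ligand and signalling genes, and called list members with the largest change in each direction were named. Il1rl1, Irak4 and Il27 were not analysed here, nor were protein sequences. Replicate numbers were checked as pairs: deviations from the group mean correlated at 0.169 and -0.131 for same-numbered arrays. With 2 naive arrays, their deviations are equal and opposite, so this check cannot decide whether the numbers pair samples. No label says that they do, so pairs were not used in the main fit. Alternatives changed normalization, filter, pseudocount, probe set choice and variance model, left out each array, or blocked on replicate number; the bioC block was chosen after seeing the data.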

Additional observations from a re-analysis of the deposited data

How the results depend on the processing

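Il6ra and Il1r2 kept their direction and call in all 18 alternatives. Il6st kept its direction in all 18 and its call in 8. Only 1 receptor gene, Il1r2, was higher with quantile normalization, median centring, no filter, no variance trend or array weights. With 1 array left out 1 to 2 were higher, never Il6st, the 2 being Il1r2 and Il1r1 without activated replicate 1; 1 was lower in each. With no filter 2 receptor probe sets were higher, against 4, and with 1 array left out 1 to 3 were higher and 1 was lower. Over all genes 819 were higher and 533 lower; 349 were lower with no filter and 859 with the bioC split as a block (1089 higher), and leaving out 1 array gave 463 to 713 higher and 185 to 508 lower. With the replicate number as a block 974 genes were higher and 796 lower, 2 receptor genes were higher and 1 lower, and Stat3 (0.69), Irak1 (-0.67) and Il18rap (0.81) passed. The sign of uncalled log2 fold changes near 0 turned. With probe sets averaged it was 0.029 for Il1rl2, 0.19 for Jak1, -0.24 for Stat3 and 0.032 for Traf6; without suffixed probe sets, 0.10 for Il1rl2 and -0.15 for Stat3. Traf6 was 0.0010 with a pseudocount of 64 and 0.036 with array weights, and Sigirr 0.0022 with array weights. The replicate block gave 0.13 for Jak1, -0.036 for Adam10 and 0.015 for the second Il10rb probe set (1429959_at). The bioC block gave 0.0041 for Il1rl2 (also as probe set 1434903_s_at), 0.0068 for Traf6 and 0.021 for Sigirr. With 1 array left out the log2 fold changes ran from -0.15 to 0.19 for Adam10, -0.021 to 0.18 for Il12rb1, -0.18 to 0.16 for Il1rl2 (1434903_s_at), -0.14 to 0.20 for Il27ra (1449508_at), -0.36 to 0.21 for Jak1, -0.57 to 0.16 for Myd88, -0.11 to 0.11 for Sigirr and -0.15 to 0.20 for Traf6. They ran from -0.19 to 0.27 for the probe set 1420904_at, -0.35 to 0.23 for 1429959_at and -0.33 to 0.38 for 1437808_x_at. The causes were not tested. Leaving out a naive array leaves 1, which is then assumed to vary like the activated ones. Il1r1, Il10ra, Lifr and Il12rb2 lay near the filter, where few arrays carry the signal.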
